A study of Mus musculus with 6 samples.

Results

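The genes described here are Il10, Il24 and Fcmr, which lie close together on mouse chromosome 1, and Il10ra and Il10rb, which encode the chains of the interleukin-10 receptor. They are 5 of 18122 genes measured, and were picked by name with earlier results of the same comparison known, so their differences between genotypes are given as a description without a test. The cells were group 2 innate lymphoid cells (ILC2s), lymphocytes without antigen receptors that release type 2 cytokines, sorted from mouse lung and cultured before RNA was taken. There were 3 libraries from wild-type (WT) mice, given as BALB/C BYJ, and 3 from mice given as C.129S4-Icostm1Shr/J (ICOS KO). In that strain name, a targeted Icos allele comes with DNA of another donor strain on a BALB/c background; ICOS is the inducible co-stimulator, a surface receptor of lymphocytes. Loss of Icos and any further donor DNA go together in the ICOS KO group and cannot be told apart. The labels give no age, sex or culture agents, and the design text speaks of duplicates although each genotype has 3 libraries. Nothing says that libraries of the same genotype are from separate animals, so p-values measure only the spread between these samples, which may be technical. These are bulk libraries, in which more cells with a transcript and more transcript per cell cannot be told apart.

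Interleukin-10 is a secreted cytokine that restrains inflammation. It binds IL-10RA, the chain specific to it, together with IL-10RB, a chain shared with the receptors of interleukin-22 and the lambda interferons. The kinases JAK1 and TYK2 on these chains then activate the transcription factor STAT3, which induces inhibitors such as SOCS3. Interleukin-24, of the same cytokine family, signals instead through the interleukin-20 receptor chains. Fcmr encodes a receptor for the constant part of immunoglobulin M, best known from B cells. Interleukin-10 from ILC2s is named in the study's title, beside cholesterol and cortisol biosynthesis, in connection with airway hyperreactivity.

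Library totals ranged from 13738058 to 18736450 counts, and 3 reads corresponded to 0.157 to 0.225 CPM (library-scaled read counts, with TMM factors) in a library. Icos, the targeted gene, read 434, 462 and 502 CPM in WT libraries against 140, 170 and 161 CPM in ICOS KO libraries (log2 difference -1.57 ± 0.10, SE; edgeR adjusted p = 1.27e-05). Of 13691 genes tested with edgeR, 451 (3.29%) passed an adjusted p of 0.05, and 39.0% of them were higher in ICOS KO. That share was 28.2% when scaled by library totals alone and 58.1% after removing trends with exon length and GC content. The number of genes passing was 193 without WT replicate 1, 194 without WT replicate 2, 1090 without ICOS KO replicate 1 and 216 without ICOS KO replicate 3. ICOS KO replicate 2 lay farthest out on the first principal component, and it had the highest mitochondrial share (0.616% against 0.263% to 0.492% in the other libraries) and the highest level of the nuclear RNA Malat1 (1687 CPM against 610 to 1413 CPM). Of 15 listed ILC2 markers 14 were measured, with summed levels of 11700 to 12899 CPM in WT and 12015 to 12674 CPM in ICOS KO. Il5 alone made up 5694 to 7027 CPM of that sum and did not pass (edgeR adjusted p = 0.504). The sum does not show that 6 of the 14 passed in edgeR: Areg, Klrg1, Arg1 and Il1rl1 rose, and Rora and Icos itself fell. Cd4 and Cd8a, which mark T cells, stayed at or under 0.852 CPM in every library. Other genes of the T cell list were higher, among them Trbc2 at 140 to 256 CPM and Cd3g at 39.8 to 71.6 CPM.

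Il10 was the most different of the 5 genes between the genotypes. It lies on chromosome 1 at 131019845 to 131024974 on the plus strand (GRCm38, GENCODE M21) and has 5 exons. Its levels were 39.5, 48.96 and 52.5 CPM in WT and 149.5, 159 and 158 CPM in ICOS KO. Every ICOS KO library lay above every WT library, and the ICOS KO libraries lay closer together than the WT ones. On average Il10 was at 47.0 ± 6.74 and 155 ± 5.09 CPM (SD, n = 3 each), a 3.31-fold difference and a log2 fold change of 1.73 ± 0.12 (SE). These values rest on 753 to 2315 counts a library, for which counting error alone is 2.08% to 3.64%, while the coefficient of variation between libraries was 14.3% in WT and 3.28% in ICOS KO. The larger errors belong to the WT libraries, with 753 to 931 counts against 2111 to 2315 in ICOS KO. The spread in WT was thus larger than counting error, and that in ICOS KO nearer to it. Counting error treats each read as a separate molecule, which reads without molecular identifiers are not. The lowest ICOS KO library stood 2.85-fold above the highest WT library.

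Il24 lies 132.39 kb upstream of Il10, on the minus strand at 130882074 to 130887454, also with 5 exons. It encodes a cytokine of the IL-10 family that acts mainly on epithelial cells. Its levels were 22.4, 19.3 and 23.8 CPM in WT and 38.6, 52.2 and 55.9 CPM in ICOS KO. The groups did not overlap, and ICOS KO replicate 1 was the lowest of its group. The means were 21.8 ± 2.30 and 48.9 ± 9.09 CPM (SD, n = 3 each), 2.24-fold apart, with a log2 fold change of 1.16 ± 0.16 (SE). Without ICOS KO replicate 1 the log2 fold change was 1.31. In length-scaled units (CPM per kb of exon) Il24 reached 0.536, 0.373 and 0.428 of the Il10 level in the WT libraries and 0.244, 0.311 and 0.334 of it in the ICOS KO libraries. Both transcripts were thus higher in ICOS KO, with Il24 at a smaller share of Il10 in each ICOS KO library than in any WT library.

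Fcmr, on the plus strand at 130865669 to 130880791, is the immediate neighbour of Il24. The genes converge, with 1282 bases between their ends, and whether the authors' counting used strand is not stated in the labels. Fcmr stood at 7.45, 9.78 and 9.11 CPM in the WT libraries against 14.1, 23.7 and 17.0 CPM in the ICOS KO ones. Again no library of one genotype overlapped those of the other, and the highest value was in ICOS KO replicate 2, the library with the highest mitochondrial share. The means were 8.78 ± 1.20 and 18.3 ± 4.92 CPM (SD, n = 3 each), 2.08-fold apart, with a log2 fold change of 1.05 ± 0.22 (SE), or 0.83 without ICOS KO replicate 2. Fcmr had the fewest counts of the 5 genes, 139 to 315 a library, for which counting error is 5.63% to 8.48%. Its coefficient of variation was 13.7% in WT and 27.0% in ICOS KO, so the libraries differed by more than counting error. Per kb of exon, Fcmr stood at 0.266, 0.405 and 0.306 of Il24 in WT and at 0.291, 0.362 and 0.243 of it in ICOS KO, values that overlap between the genotypes.

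The reference table of promoters held 1 of the 5 genes, Fcmr. The bases just before its GENCODE start are shown because no other of the 5 had an entry (RefSeq, GRCm38.p6, plus strand, chr1:130865527-130865668, read 5′ to 3′).
Fcmr upstream: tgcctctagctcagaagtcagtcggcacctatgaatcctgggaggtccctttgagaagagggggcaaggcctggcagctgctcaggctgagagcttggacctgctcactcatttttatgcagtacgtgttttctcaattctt
Matches to 6 motifs on either strand would be in capitals, and there were none in these 142 bases. The letters searched were TTCNNNGAA for STAT factors, TGANTCA for AP-1, TGCTGA for Maf proteins, AGATAA for GATA factors, CACGTG for the E box and TATAAA for the TATA box. The RefSeq start of Fcmr is at 130865777, so this stretch does not reach the bases next to that start. Among 32851 promoter windows of the same length, placed likewise by their RefSeq starts, 4.15% held the STAT letters, 3.73% AP-1 and 9.11% Maf. For the GATA, E box and TATA letters the shares were 6.29%, 2.697% and 6.99%. These windows also stop short of the bases next to their RefSeq starts. The absence says only that these letters do not occur in this stretch.

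**Figure D1:**
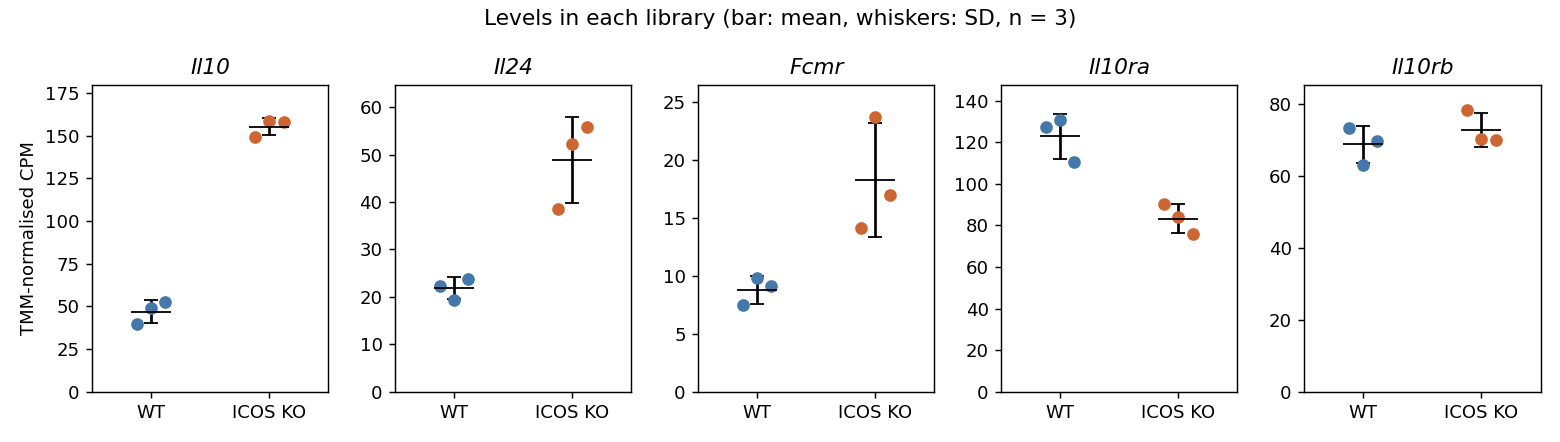
TMM-normalised CPM of Il10, Il24, Fcmr, Il10ra and Il10rb, each on its own axis from 0, with 1 point a library (WT blue, ICOS KO orange), the bar at the mean and whiskers of 1 SD (n = 3). Il10 stood near 155 CPM in all ICOS KO libraries against 39.5 to 52.5 CPM in WT, Il24 and Fcmr were also separated upward, Il10ra downward, and Il10rb overlapped.

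Around Il10, 16 annotated genes within 500 kb had values and 10 genes other than Il10, Il24 and Fcmr were tested. None of the 10 passed an adjusted p of 0.05 in edgeR or voom. At an unadjusted p of 0.05, 2 passed. How many of all genes did so was not counted, so nothing is read from that number. DESeq2 called 1 of the 10, beside 929 of all 13691 genes. The median log2 fold change of the 10 was -0.10, beside -0.0035 over all genes tested. Mapkapk2, a kinase of the p38 stress pathway whose gene lies 28.725 kb past the end of Il10, stood at 239, 242 and 190 CPM in the WT libraries against 235, 240 and 215 CPM in the ICOS KO ones. Its log2 fold change was 0.04 ± 0.11 (SE; edgeR adjusted p = 0.875), and the groups overlapped. Dyrk3, a kinase gene on the same side, stood at 23.7 ± 0.330 CPM in WT and 15.3 ± 3.43 CPM in ICOS KO (log2 fold change -0.63 ± 0.18; edgeR adjusted p = 0.0878). It passed in DESeq2 (adjusted p = 0.0312) and in edgeR without ICOS KO replicate 1 (adjusted p = 0.0278). Il19, the family member between Il24 and Il10, had 1 to 6 counts a library and was too low to test. The nearest tested genes on the far side of Fcmr were Pfkfb2, a regulator of glycolysis, and Yod1, a deubiquitinase. Pfkfb2 had means of 1.60 CPM in WT and 0.702 CPM in ICOS KO, with overlapping groups. Yod1 went the other way, with means of 3.18 and 5.11 CPM. Every ICOS KO library was above every WT library for Yod1, as in 11.9% of all tested genes. The 2 genes overlap each other on opposite strands, and neither passed (edgeR adjusted p = 0.316 for Pfkfb2 and 0.243 for Yod1).

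A wider list of 28 genes of this part of chromosome 1 was also tested. Of 19 tested, none passed in edgeR or voom and 4 had an unadjusted p under 0.05, again without a count over all genes. DESeq2 called 2 of the 19, beside 929 of all 13691 genes. The median log2 fold change of the 19 was -0.23. Without ICOS KO replicate 1 or replicate 2 edgeR called 1. Those with the smallest p were Dyrk3, Ube2t, a ubiquitin-conjugating enzyme of DNA repair (27.0 ± 2.48 and 21.1 ± 1.91 CPM; edgeR adjusted p = 0.211), and Ctse, the protease cathepsin E (53.6 ± 7.05 and 76.5 ± 16.4 CPM; edgeR adjusted p = 0.119). Of the fits without a block on replicate number, Ctse passed in edgeR without ICOS KO replicate 2 (adjusted p = 0.0235), with a log2 fold change of 0.69 in place of 0.52, and in DESeq2 (adjusted p = 0.0378). Icos itself lies on the same chromosome, 70.02 Mb away from Il10, and how far donor DNA extends around Icos is not stated in the labels.

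**Figure D2:**
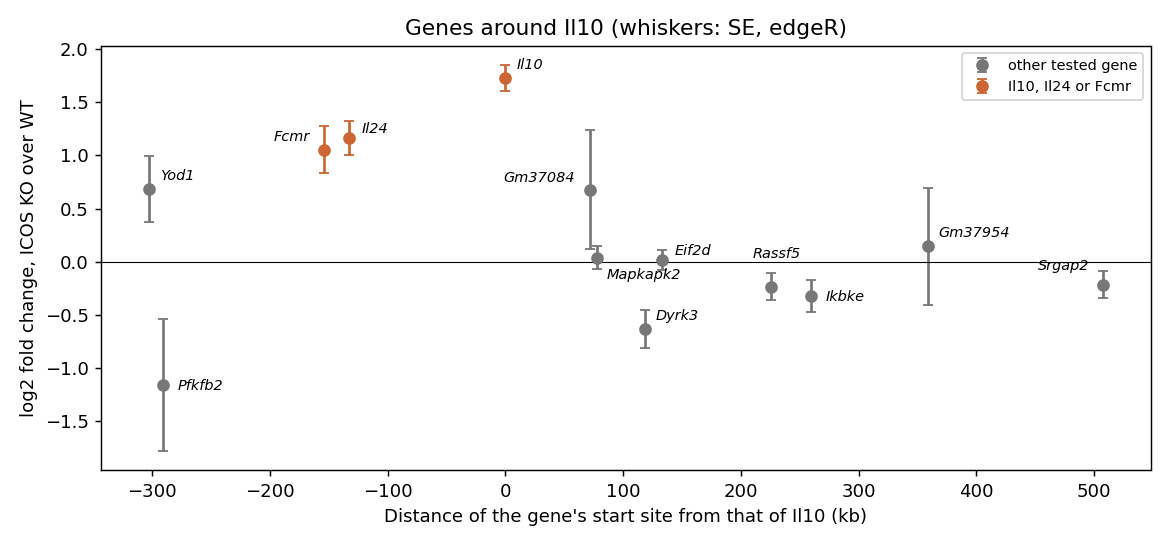
Log2 fold change (ICOS KO over WT, whiskers of 1 SE from edgeR) of tested genes against the distance in kb of their start site from that of Il10. Il10, Il24 and Fcmr (orange) lie between 1.05 and 1.73, while the other genes (grey) lie between -1.16 and 0.68.

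Il10ra, by contrast, was lower in ICOS KO. It encodes the chain that binds interleukin-10 and lies on chromosome 9 at 45253837 to 45269149, minus strand, with 7 exons. Its levels were 127, 131 and 110 CPM in WT and 90.2, 83.9 and 75.9 CPM in ICOS KO. Every ICOS KO library lay below every WT library, though WT replicate 3 was closest to the ICOS KO group. The means were 123 ± 10.96 and 83.3 ± 7.13 CPM (SD, n = 3 each), which is 1.47-fold lower in ICOS KO and a log2 fold change of -0.56 ± 0.11 (SE). The libraries held 1023 to 2490 counts of Il10ra, with coefficients of variation of 8.92% in WT and 8.56% in ICOS KO. Macrophages also carry this receptor. The 15 macrophage and monocyte markers listed were all measured and summed to 386 to 764 CPM in WT and 337 to 477 CPM in ICOS KO, which overlap, and their part in the result was not tested. Most of that sum was Chil3 (265 to 585 CPM in WT). Csf1r, the receptor of a macrophage growth factor, fell from 11.3 ± 2.19 to 3.86 ± 1.26 CPM (edgeR adjusted p = 0.013), the direction of Il10ra. Cd68 (39.9 and 27.9 CPM), Lyz2 (64.5 and 44.0 CPM) and Itgax (11.6 and 6.82 CPM) had lower means in ICOS KO, with overlapping groups, and did not pass (edgeR adjusted p = 0.174, 0.185 and 0.166). Adgre1, another macrophage marker, had means of 6.16 and 5.78 CPM (edgeR adjusted p = 0.921). Marco, too low to test, had means of 0.0699 CPM in WT and 0.915 CPM in ICOS KO, with overlapping groups. Mrc1, C1qa, C1qb, C1qc and Mertk each had a mean under 1.02 CPM in WT.

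Il10rb did not separate the genotypes. It encodes the shared signalling chain and lies on chromosome 16 at 91406164 to 91425834, plus strand, 0.574 kb past the end of Ifnar2. WT libraries had 73.4, 63.2 and 69.8 CPM of it, and ICOS KO libraries 78.2, 70.3 and 69.8 CPM. The groups overlapped, with the highest value in ICOS KO and the lowest in WT. The means were 68.8 ± 5.18 and 72.8 ± 4.71 CPM (SD, n = 3 each), with a log2 fold change of 0.08 ± 0.11 (SE). That value ranged from 0.02 to 0.13 as single libraries were left out and was 0.21 with the length and GC trend removed. The predicted gene Gm21970 overlaps Il10rb and was given 0.786 CPM in WT replicate 1 and no whole read in any other library.

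The ratio of the receptor chains was compared in each library. Per kb of exon, Il10ra exceeded Il10rb by 1.89, 2.26 and 1.72 times in the WT libraries and by 1.25, 1.30 and 1.18 times in the ICOS KO libraries. With the longest transcript as the length of each gene, the ratios were 1.38, 1.65 and 1.26 in WT and 0.920, 0.952 and 0.867 in ICOS KO. The ratio was lower in every ICOS KO library than in any WT library with either length, while which chain was the more abundant in ICOS KO changed with the length chosen. The ratio of Il10 to Il10ra per kb of exon, of ligand to its own receptor transcript, was 0.828, 0.998 and 1.27 in WT and 4.43, 5.05 and 5.55 in ICOS KO.

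In edgeR's fit over all genes, 3 of the 5 passed an adjusted p of 0.05 upward, where 1.29% of all genes did, and 1 passed downward, where 2.01% did. Groups without overlap were found in 4 of the 5 and in 24.4% of all tested genes. Since the genes were picked with this comparison known, nothing is read from these counts. Their directions were those given above in all of the 15 other fits made.

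Within a genotype the 5 transcripts fell in an order that was set by length-scaled levels. In WT, Il10 (35.9 ± 5.14 CPM per kb of exon) and Il10ra (35.1 ± 3.13) were highest and overlapped. They were followed by Il10rb (18.1 ± 1.36) and Il24 (15.7 ± 1.66), which also overlapped, and by Fcmr (5.06 ± 0.693; SD, n = 3 each). In ICOS KO the order was Il10 (119 ± 3.89), Il24 (35.3 ± 6.56), Il10ra (23.8 ± 2.04), Il10rb (19.1 ± 1.24) and Fcmr (10.5 ± 2.83), and no neighbours in it overlapped. With the longest transcript as length, Il10rb (26.1 CPM per kb) came before Il10ra (23.8 CPM per kb) in ICOS KO. Among 13388 tested genes with a known exon length, Il10 ranked 1804 in WT and 588 in ICOS KO, and Il24 ranked 3440 and 1896. Il10ra ranked 1844 in WT and 2562 in ICOS KO, Il10rb 3117 and 3026, and Fcmr 6598 and 4480. The WT libraries of cultured ILC2s thus already held Il10 in the upper part of the range, at percentile 86.5 (82.9 with the longest transcript as length).

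Of the other IL-10 family cytokines, Il22 was measured in every library. Interleukin-22 acts on epithelial barriers and signals through IL-10RB. Il22 stood at 23.8, 16.1 and 32.0 CPM in the WT libraries against 40.9, 60.96 and 38.4 CPM in the ICOS KO ones. The groups did not overlap, although WT replicate 3 and ICOS KO replicate 3 were close. The log2 fold change was 0.97 ± 0.24 (SE) and edgeR's adjusted p was 0.0535, so Il22 did not pass. Of the fits without a block on replicate number, it passed without WT replicate 3 (adjusted p = 0.0293) or ICOS KO replicate 1 (0.0362) and with DESeq2 (0.00138), voom (0.0401), RLE factors (0.0494) and the stricter filter on low counts (0.0444). Over all alternatives its adjusted p ranged up to 0.195. Iltifb, a near-identical copy of Il22, had group means of 2.19 ± 2.07 and 4.95 ± 0.405 CPM (SD, n = 3 each; edgeR adjusted p = 0.287). Reads may be shared between the copies. With the counts of both summed, a check chosen after the data were seen, the log2 fold change was 0.99 ± 0.25 and edgeR's adjusted p was 0.0614. Of the 2 tested cytokines outside Il10 and Il24, none therefore passed in edgeR and 1 had an unadjusted p under 0.05. DESeq2 and voom each called 1 of them, beside 929 and 423 of all 13691 genes. Il20, Ifnl2 and Ifnl3 were not analysed here.

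The class II cytokine receptor chains, which share the fold of the IL-10 receptor, all had negative fold changes in the edgeR fit with TMM factors, apart from Il10rb; other scalings were not examined for Ifnar2 and Ifngr1. Of the 5 tested besides Il10ra and Il10rb, none passed in edgeR or voom and 1 had an unadjusted p under 0.05. DESeq2 called 1 of the 5, beside 929 of all 13691 genes. The median log2 fold change of the 5 was -0.31. Ifngr2, the signalling chain of the interferon-gamma receptor, which lies in the same cluster on chromosome 16 as Il10rb, stood at 46.8, 49.1 and 36.0 CPM in the WT libraries against 26.7, 32.5 and 28.1 CPM in the ICOS KO ones. The groups did not overlap, and the log2 fold change was -0.60 ± 0.15 (SE; edgeR adjusted p = 0.0584). Among fits without such a block, it passed without WT replicate 3 (edgeR adjusted p = 0.0304), with DESeq2 (0.0101), with library totals alone (0.0323) and with the stricter filter (0.0477). With the length and GC trend removed its log2 fold change was -0.42 (adjusted p = 0.141), and over all alternatives its adjusted p ranged up to 0.255. Ifnar1, of the type I interferon receptor, lies 59.403 kb past Il10rb and had group means of 53.3 ± 6.33 and 43.0 ± 11.04 CPM (edgeR adjusted p = 0.343). Ifnar2, its partner, stood at 48.0 to 53.1 CPM in WT and 43.0 to 49.9 CPM in ICOS KO (edgeR adjusted p = 0.476). F3, the gene of tissue factor, had means of 5.89 ± 3.88 and 2.74 ± 1.71 CPM (edgeR adjusted p = 0.304). Il20rb, a chain through which interleukin-24 signals, was at 0.258 to 1.11 CPM and too low to test. Il20ra and Il22ra1, the partner chains for interleukin-24 and interleukin-22, were not analysed here.

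**Figure D3:**
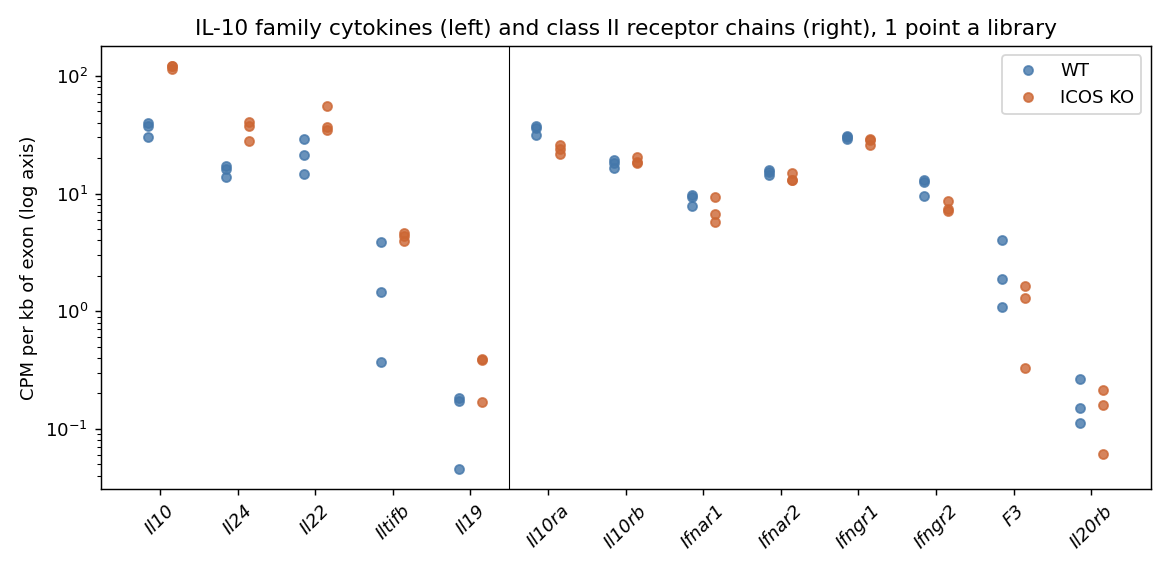
CPM per kb of exon on a log axis, 1 point a library (WT blue, ICOS KO orange), for cytokines of the IL-10 family to the left of the line and class II receptor chains to the right. Il10 was the most abundant cytokine in each genotype, near 119 CPM per kb in ICOS KO, and Il19 and Il20rb lay lowest.

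Downstream of the receptor, 2 of 18 signalling genes passed in edgeR, where 3.29% of all tested genes did. All 18 were tested, and among those that passed Socs3 rose. The median log2 fold change of the list was -0.11, beside -0.0035 over all genes, and 6 of its genes were positive and 12 negative. Socs3, the feedback inhibitor that STAT3 induces, stood at 247, 274 and 230 CPM in the WT libraries against 430, 344 and 388 CPM in the ICOS KO ones (log2 fold change 0.63 ± 0.11; edgeR adjusted p = 0.0084). Every ICOS KO library was above every WT library. Leaving out WT replicate 1 (adjusted p = 0.0543) or ICOS KO replicate 3 (0.0527) ended the call.

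The kinases and the main transcription factor of the receptor did not pass. Mean levels of Jak1 were 392 ± 23.8 and 326 ± 39.7 CPM (edgeR adjusted p = 0.19). Every ICOS KO library was below every WT library, as in 12.5% of all tested genes. Mean levels of Tyk2 were 102 ± 19.8 and 79.9 ± 16.9 CPM, with overlapping groups (edgeR adjusted p = 0.27). Stat3 had 332, 357 and 281 CPM in WT and 320, 255 and 273 CPM in ICOS KO, with overlapping groups (log2 fold change -0.19 ± 0.12; edgeR adjusted p = 0.37). Over the list, edgeR called no gene without WT replicate 1 or ICOS KO replicate 3 and 1 without WT replicate 2, WT replicate 3 or ICOS KO replicate 2.

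Among 22 genes known to respond to interleukin-10 and STAT3, 3 rose, namely Socs3 (also in the signalling list), Zfp36 and Bcl3, and 1 fell, Il1rn. At the same threshold 1.29% of all tested genes rose and 2.01% fell. The median log2 fold change of the list was -0.01, and 11 of its genes were positive and 11 negative. Zfp36, which encodes tristetraprolin, a protein that destabilises cytokine mRNAs, stood at 47.4, 52.6 and 48.0 CPM in the WT libraries against 76.6, 77.5 and 71.3 CPM in the ICOS KO ones (log2 fold change 0.61 ± 0.11; edgeR adjusted p = 0.0102). Bcl3, an atypical inhibitor of NF-kB, rose, with 211 ± 6.89 CPM in WT against 280 ± 10.4 CPM in ICOS KO (SD, n = 3; edgeR adjusted p = 0.0259). In both genes the groups did not overlap and the spread within a genotype was small. Il1rn, the interleukin-1 receptor antagonist, fell from 23.0 ± 5.22 to 10.1 ± 3.85 CPM (edgeR adjusted p = 0.0359), in the direction opposite to its induction by interleukin-10 in macrophages. Of the macrophage and monocyte markers given with Il10ra, 9 were tested and 1 passed, Csf1r, which fell as Il1rn did. Their part in the value of Il1rn was not tested.

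These calls depended on single libraries. The call of Zfp36 was lost without WT replicate 1 (adjusted p = 0.0721), that of Bcl3 when WT replicate 1, 2 or 3 was left out, or ICOS KO replicate 3 (at most 0.162) and with library totals alone (0.066), and that of Il1rn in all such fits but the one without ICOS KO replicate 1 (up to 0.154). Over the list, no gene was called without WT replicate 1, 2 without WT replicate 2 or 3, and 1 without ICOS KO replicate 3. DESeq2 called 7 genes of the list and voom 4, beside 929 and 423 of all 13691 genes.

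**Figure D4:**
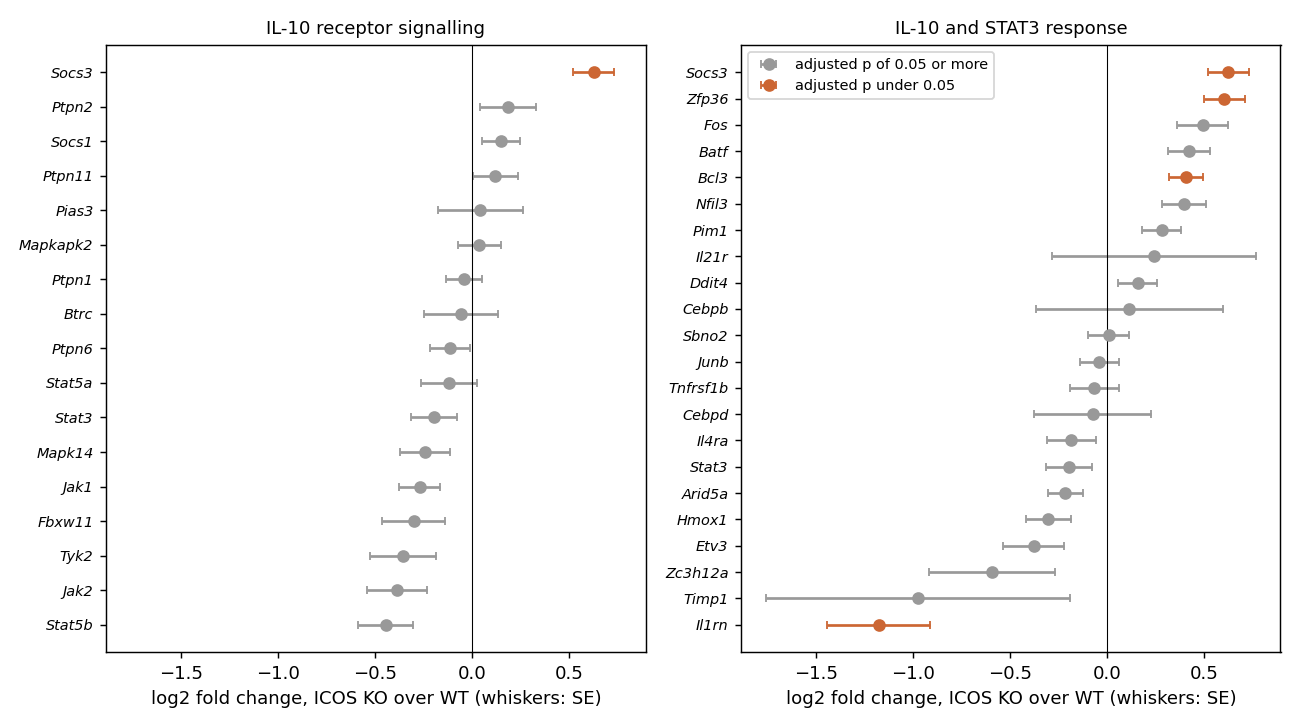
Log2 fold change (ICOS KO over WT, whiskers of 1 SE from edgeR) of genes of IL-10 receptor signalling and of the IL-10 and STAT3 response, ordered by size, with genes under an adjusted p of 0.05 in orange. Socs3, Zfp36 and Bcl3 lie to the right and Il1rn to the left, and genes that did not pass are grey.

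Of 9 tested genes in a list of IgM and Fc receptors besides Fcmr, 3 had positive and 6 negative fold changes. None was called higher and 1 was called lower, beside 1.29% and 2.01% of all tested genes. The median log2 fold change of the list was -0.44. The gene called was Fcer1a, the IgE-binding chain typical of mast cells and basophils, with 1.78, 1.63 and 1.77 CPM in WT, 0.225 CPM in ICOS KO replicate 2 and no read in the other ICOS KO libraries (edgeR adjusted p = 0.0183). Leaving out any 1 WT library, or ICOS KO replicate 3, ended that call (adjusted p at most 0.1) and left none in the list. Fcer1g, the shared signalling chain, stood at 16.2 to 23.0 CPM in WT and 14.5 to 18.7 CPM in ICOS KO (edgeR adjusted p = 0.519). Fcgr3 stood at 10.0 to 14.9 CPM in WT and 6.33 to 8.72 CPM in ICOS KO (edgeR adjusted p = 0.16). Pigr and Fcamr, the other receptors of this kind beside Fcmr on chromosome 1, were not analysed here.

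Marker lists of other cell types were summed in the same libraries. Of 13 B cell and plasma cell markers 8 were measured, with sums of 1029 to 1528 CPM in WT and 1687 to 1704 CPM in ICOS KO, the same direction as Fcmr. Nearly all of that sum was Ighm (883 to 1339 CPM in WT and 1471 to 1490 CPM in ICOS KO) and Jchain. Ms4a1, which encodes CD20 of B cells, stayed between 0.15 and 1.87 CPM, and Cd79b rose from 19.1 ± 1.76 to 31.9 ± 7.29 CPM (edgeR adjusted p = 0.0466). T cell markers, 11 of 11 measured, summed to 251 to 305 CPM in WT and 370 to 473 CPM in ICOS KO. Most of that sum came from Trbc1 and Trbc2, which rose. Cd3g, the next most abundant, had overlapping groups with means of 48.2 and 63.3 CPM (edgeR adjusted p = 0.214). Cd3e fell (8.87 and 2.30 CPM; edgeR adjusted p = 0.0281), while Foxp3 of regulatory T cells, another source of interleukin-10, stood at 4.72 to 5.35 CPM in WT and 3.34 to 3.61 CPM in ICOS KO (edgeR adjusted p = 0.323). Markers typical of mast cells and basophils, 11 of 12 measured, summed to 356 to 409 CPM in WT and 60.9 to 72.1 CPM in ICOS KO. This was opposite to Il10 and in the direction of Il10ra. Most of the WT sum was Tpsab1 (231 to 280 CPM, against 21.0 to 34.7 CPM in ICOS KO). Of 9 tested, 7 were called lower in edgeR, where 2.01% of all tested genes were. Kit did not differ, with means of 20.3 and 20.2 CPM (edgeR adjusted p = 0.998). Dendritic cell markers, 5 of 8 measured, summed to 128 to 138 CPM in WT and 95.5 to 110 CPM in ICOS KO. Most of that difference was Ccr7, which fell from 94.5 ± 5.88 to 62.4 ± 6.67 CPM (edgeR adjusted p = 0.0142), while Xcr1, the next most abundant, had means of 35.1 and 38.1 CPM (edgeR adjusted p = 0.619). NK cell markers, 5 of 6 measured and almost wholly Gzma, summed to 142 to 189 CPM in WT and 429 to 693 CPM in ICOS KO. Gzma rose, and Prf1 had means of 2.91 and 5.44 CPM with overlapping groups (edgeR adjusted p = 0.219). By contrast Ncr1, a receptor gene of NK cells, fell from 1.42 to 0.025 CPM (edgeR adjusted p = 0.0071). Klrb1c, too low to test, had means of 0.433 and 0.022 CPM. Sums of epithelial and stromal markers overlapped (146 to 256 CPM in WT and 144 to 275 CPM in ICOS KO), with members in opposite directions. Epcam rose from 46.4 ± 1.15 to 76.1 ± 5.15 CPM (edgeR adjusted p = 0.0038), and Sftpc of alveolar cells had means of 33.0 ± 12.3 and 8.11 ± 7.73 CPM without overlap (edgeR adjusted p = 0.141). The part of these cells in the values of the 5 genes was not tested.

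The genes whose profile over the 6 libraries was nearest to each of the 5 were found among 9198 others with a mean of at least 5 CPM, by the root mean square difference of log2 CPM centred on each gene's mean. For Il10 they were Areg, which encodes the epithelial growth factor amphiregulin (difference 0.17), the granzyme gene Gzma (0.19) and the sialyltransferase gene St3gal6 (0.19), against a spread of Il10 itself of 0.88. Areg stood at 96.7 ± 10.6 CPM in WT and 257 ± 14.8 CPM in ICOS KO (SD, n = 3 each). Nearest to Il24 were Gimap7, a GTPase gene of lymphocytes (0.095), Trbc1, a constant segment of the T cell receptor beta chain (0.13), and Mpp7 (0.13). Nearest to Fcmr were Plac8 (0.094), Smco4 (0.12) and Tha1 (0.13). The profile of Il10ra was closest to those of the choline transporter gene Slc44a2 (0.043), the histone methyltransferase gene Setdb1 (0.047) and the kinase gene Mapkapk3 (0.048). That of Il10rb was closest to Tmem167b (0.03), the replication factor gene Cdc45 (0.032) and the pseudouridine synthase gene Pus1 (0.035). Gimap7 stood at 26.3 ± 4.34 and 57.6 ± 9.63 CPM, and Trbc1 at 59.0 ± 5.38 and 123 ± 20.9 CPM (SD, n = 3 each). Since these genes were found by their likeness over both genotypes, their difference between genotypes is fixed by the search and carries no test.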

How the data were processed

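RNA of sorted, cultured lung ILC2s (10 pg of RNA a library, a SMARTer low-input kit without stated molecular identifiers) was measured in 3 WT and 3 ICOS KO libraries, per the labels' protocols. Partek 10.0, STAR 2.7.8, DESeq2 and the build mm10 are named in the submitters' processing notes; how reads were assigned to genes is not stated there. The authors' table, as deposited, holds estimated counts per gene, and 38.9% of values lay further than 1e-06 from a whole number; they were rounded here. Estimated counts can divide reads between near copies.

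In R 4.3.3, edgeR 4.0.16 filtered low genes (filterByExpr), computed TMM factors and compared the genotypes by its quasi-likelihood method with no covariate. Adjusted p-values follow Benjamini and Hochberg over all tested genes. voom came from limma 3.58.1. SE values are implied by the F statistic. The fit was tested on simulated data. Alternatives were RLE, upper-quartile and no factors, DESeq2 1.42.0, voom, 2 filters on low counts, a replicate block, each library left out, and removal of the length and GC trend. Replicates differed by at least 7.64 in chi-square per degree of freedom, so none was a copy. Reads without molecular identifiers are not independent molecules, and errors from counts cover counting error only.

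The 5 genes and the lists were chosen with earlier results of these data known. Named genes are the 5, Icos, called members of each list or, with none called, up to 3 with the smallest p, and the 3 genes nearest in profile to each of the 5; others named for their role or place (Mapkapk2, Jak1, Tyk2, Stat3, Ifnar2, Fcer1g, Fcgr3, Pfkfb2, Yod1, the cell type markers) were chosen after their values were seen. Positions and exon lengths come from the GENCODE M21 annotation of GRCm38, which mm10 denotes, matched by symbol for 17691 of 18122 genes. Some genes of the lists enter the fits and counts but are not reported here or drawn.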

Additional observations from a re-analysis of the deposited data

How the results depend on the processing

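The 5 genes kept their direction in all 15 other fits. Log2 fold changes ranged, as single libraries were left out, from 1.61 to 1.81 for Il10, 1.05 to 1.31 for Il24, 0.83 to 1.21 for Fcmr, -0.63 to -0.50 for Il10ra and 0.02 to 0.13 for Il10rb. With the length and GC trend removed, Il10ra was at -0.39 and Il10rb at 0.21, and 58.1% of called genes were higher in ICOS KO, against 28.2% with library totals alone. With the longest transcript as length, the WT percentiles were 82.9 for Il10, 71.8 for Il24, 46.6 for Fcmr and 82.6 for Il10ra. DESeq2 called 929 genes, edgeR with a replicate block 784 and edgeR with the trend removed 613, against 451. The number was 193 to 1090 as libraries were left out.

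Calls among the IL-10 and STAT3 response genes were 7 with DESeq2 or the trend removed (0 to 5 as libraries were left out). Among signalling genes they were 1 with upper-quartile factors, no filter or the trend removed (0 to 3). Among the other family cytokines they were 1 with RLE factors, the stricter filter, the replicate block, DESeq2 or voom (0 to 1). Among the other receptor chains they were 1 with library totals, the stricter filter, the replicate block or DESeq2 (0 to 1). Among the locus neighbours they were 1 with the replicate block and 2 with DESeq2 (0 to 1), and among Fc receptors 0 with the stricter filter (0 to 1). Cdc45 changed sign with library totals (-0.026) and without WT replicate 2 (-0.034; up to 0.081 as other libraries were left out), and Tmem167b without ICOS KO replicate 1 (-0.0039). Ranking by Pearson correlation kept 1 of the 3 genes nearest Il10 and 0 of the 3 of each other gene. The cause of these changes was not tested.

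Replicate numbers are shared by the genotypes, but deviations of same-numbered libraries correlated at only 0.0643 to 0.0868, so the pairing was not taken as real; 6 of 6 libraries nonetheless correlated best with their own number, a hint from the data. With the replicate block, Il22 (adjusted p = 0.0459), Ifngr2 (0.0296) and Ctse (0.0254) passed in edgeR, which they did not in the otherwise identical fit without it. Low counts limit Il19, Il20rb and Fcer1a.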
